A study of Mus musculus with 2 samples.

Results

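Type I interferon-stimulated genes were followed across the endothelium of the normal mammary gland and of E0771 tumors. The list holds 35 genes that were chosen by name, and all 35 have a row in both deposited count tables, out of 14976 genes listed in both. Type I interferons are antiviral cytokines that bind a receptor of Ifnar1 and Ifnar2 chains, which carry the kinases Jak1 and Tyk2. These kinases phosphorylate STAT proteins, which join IRF9 and bind a DNA element in the promoters of their target genes, the interferon-stimulated response element (ISRE). The products of these genes bind viral RNA, block viral entry and release, tag proteins with ISG15 and feed back on the signal itself, and endothelial cells (ECs) are among the cells that respond.

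Sorted CD45-/CD31+ cells of 2 kinds were profiled by droplet single-cell RNA sequencing (10x Genomics), with 1 library each. Normal ECs (NECs) came from pooled mammary glands of C57BL/6 mice aged 6 to 8 weeks, and tumor ECs (TECs) came from pooled orthotopic tumors of E0771, a mouse mammary carcinoma line. Strain and age of the tumor-bearing mice are not given in the labels, no genetic change or drug is named for either group, and some label fields of the normal library name tumor cells although its title and the deposited design give normal glands. With 1 library per condition and pooled animals there is no replicate, so no test was made, and all intervals are 95% intervals for counting error only (exact Poisson for levels, exact conditional binomial for ratios, Clopper-Pearson for shares of cells).

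A cell was kept with at least 200 detected genes, less than 10% mitochondrial UMIs (unique molecular identifiers, each counting 1 captured RNA molecule) and no UMI of Ptprc, Myh11, Epcam or Cspg4, which mark immune, smooth muscle, epithelial and pericyte cells. Of the kept cells, those with a UMI of Cdh5 or Pecam1, and with more UMIs of this pair than of Rhox5, Hmga2 and Krt8 together, were taken as ECs. This left 4912 NECs out of 5200 kept cells and 261 TECs out of 456. In the tumor library, 183 kept cells had more UMIs of Rhox5, Hmga2 and Krt8 and are called cancer-like cells. The summed level of 8 endothelial markers that this rule did not use was 5956 CPM (UMIs of a gene per 1000000 UMIs of the group) in NECs, 5214 CPM in TECs and 97.6 CPM in cancer-like cells, which is 1.87% of the level in TECs. The median depth was 2984 UMIs per NEC, 16989 per TEC and 51995 per cancer-like cell, and 3 barcodes occurred in both tables, none of them among the ECs. The normal library also carried 2099 CPM of salivary gland genes in its ECs (7 of the 8 genes of that list are in its table), and the tumor table lists none of the 8.

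The promoters of some members hold known elements. RefSeq promoters (GRCm38.p6) were matched for 26 of the 35 members, and the 250 bases before the transcription start were searched on both strands. The ISRE core GAAANNGAAA (TTTCNNTTTC on the other strand) was present in 8 of the 26 (30.8%), against 3.46% of 27025 genes. The core of the GAS element, TTCNNNGAA, which binds STAT dimers, was present in 4 of the 26 (15.4%) against 8.13% of genes. A match describes these letters only and is no evidence of binding. Members with and without an ISRE core lay on both sides in the levels below. A link between core and level was not tested. Promoters are shown for 5 ISRE-bearing genes and for Irf1 (no ISRE core), in the entry of 2 that holds a GAS core. Each is the 200 bases up to the base before the start, 5′ to 3′ on the strand of the gene, and capitals mark the core.
Ifit1 (chr19:34640689-34640888, plus strand): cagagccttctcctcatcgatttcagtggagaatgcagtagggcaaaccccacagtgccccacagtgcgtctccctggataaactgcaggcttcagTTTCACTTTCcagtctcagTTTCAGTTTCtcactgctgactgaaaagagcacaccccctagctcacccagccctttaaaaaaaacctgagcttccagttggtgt
Ifit3 (chr19:34583329-34583528, plus strand): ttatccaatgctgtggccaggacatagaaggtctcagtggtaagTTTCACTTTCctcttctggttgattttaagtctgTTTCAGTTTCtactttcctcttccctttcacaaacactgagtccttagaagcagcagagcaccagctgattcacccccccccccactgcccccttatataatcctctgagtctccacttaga
Ifit3b (chr19:34607757-34607956, plus strand): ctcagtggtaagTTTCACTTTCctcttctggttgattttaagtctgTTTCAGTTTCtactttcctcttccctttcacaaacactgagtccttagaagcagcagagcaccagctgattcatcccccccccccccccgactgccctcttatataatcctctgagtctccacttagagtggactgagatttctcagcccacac
Isg15 (chr4:156200819-156201018, minus strand): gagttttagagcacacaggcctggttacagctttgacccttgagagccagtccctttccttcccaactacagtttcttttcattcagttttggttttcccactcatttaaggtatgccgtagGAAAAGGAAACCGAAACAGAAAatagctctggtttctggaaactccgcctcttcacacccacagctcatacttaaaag
Rsad2 (chr12:26456453-26456652, minus strand): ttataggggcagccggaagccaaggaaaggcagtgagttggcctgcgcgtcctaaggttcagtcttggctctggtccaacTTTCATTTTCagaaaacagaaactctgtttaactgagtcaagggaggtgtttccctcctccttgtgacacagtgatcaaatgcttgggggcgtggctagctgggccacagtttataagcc
Irf1 (chr11:53769814-53770013, plus strand): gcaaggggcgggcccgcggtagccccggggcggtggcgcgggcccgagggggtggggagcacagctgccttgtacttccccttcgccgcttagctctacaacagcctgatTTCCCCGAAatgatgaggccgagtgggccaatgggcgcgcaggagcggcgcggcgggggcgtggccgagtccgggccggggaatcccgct
The core began 104 and 85 bases before the start in Ifit1, 156 and 122 bases in Ifit3, and 188 and 154 bases in Ifit3b. In Isg15, 3 overlapping cores began 78, 72 and 66 bases before the start. Rsad2 held 1 core at 120 bases, and Irf1 held no ISRE core and 1 GAS core at 90 bases.

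The members made up a larger share of the RNA of TECs than of NECs or cancer-like cells. They took 1.04% of the UMIs of NECs (1.04 to 1.05%), 1.72% of those of TECs (1.71 to 1.73%) and 0.547% of those of cancer-like cells (0.542 to 0.551%). The summed level was 0.72 log2 units higher in TECs than in NECs (0.71 to 0.73). All 35 members passed the gene filter, a mean of 2 CPM over both groups. Mx1, at 0.868 CPM in NECs and 21.5 CPM in TECs, passed only through TECs, where it was higher, and it is part of the counts below. In TECs, 15 members were 2-fold or more higher, against 11.2% of 11119 genes compared, and 2 were 2-fold or more lower, against 21.1% of genes. The median log2 ratio was 0.83 over the members and -0.17 over all genes. Relative to that median of all genes, 18 members were 2-fold or more higher and 2 lower, and the sign turned for Samd9l.

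**Figure D1:**
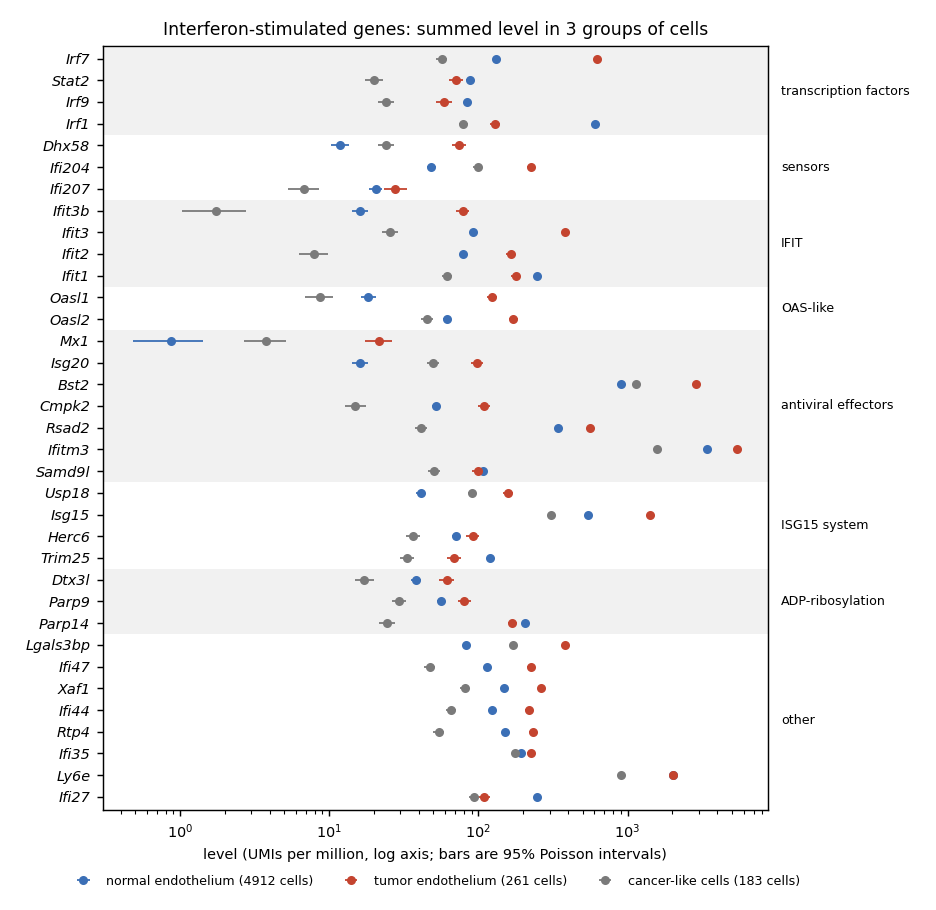
Level of each of the 35 members (x axis, CPM on a log scale) in NECs (blue), TECs (red) and cancer-like cells (gray), ordered by role and, within a role, by the ratio of TECs over NECs. Points are sums over the cells of a group and bars are 95% Poisson intervals. The red point lies above the gray point for all 35 members.

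The transcription factors among the members did not move together. Irf7, the factor that amplifies type I interferon production, was at 132 CPM in NECs, 626 CPM in TECs and 56.8 CPM in cancer-like cells. Its level in TECs was 2.25 log2 units above NECs (2.17 to 2.33). Stat2 and Irf9, which are parts of the ISRE-binding complex, were at 87.5 and 84.3 CPM in NECs and at 71.0 and 58.8 CPM in TECs, with log2 ratios of -0.30 and -0.52. Irf1, which responds to interferon-γ and to other acute stimuli, went the other way from Irf7, from 609 CPM in NECs to 130 CPM in TECs, with a log2 ratio of -2.23 (-2.35 to -2.11). Irf9 lies on chromosome 14 in the same orientation as the overlapping gene Rnf31, so their reads may be shared.

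Among the sensors, Dhx58 (the RNA sensor LGP2) and Ifi204 (a DNA-binding protein of the PYHIN family) were both higher in TECs. Dhx58 was at 11.8 CPM in NECs and 73.8 CPM in TECs, a log2 ratio of 2.64 (2.39 to 2.90). Ifi204 was at 48.3 and 226 CPM, a log2 ratio of 2.22 (2.09 to 2.36). The other PYHIN gene, Ifi207, differed little in the sums, with 20.5 CPM in NECs and 27.8 CPM in TECs. In the annotation 20.02% of the 50-base stretches of Ifi204 also occur in other genes, mostly Ifi211, and its counts are uncertain to that extent.

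The IFIT proteins bind foreign RNA and block its translation, and their genes lie side by side on chromosome 19. Ifit3 was at 92.1 CPM in NECs and 381 CPM in TECs, a log2 ratio of 2.05 (1.95 to 2.15). Ifit3b was at 16.1 and 78.6 CPM, a log2 ratio of 2.29 (2.06 to 2.52). The transcripts of this pair share much sequence, with 51.2% of the 50-base stretches of Ifit3 and 45.0% of those of Ifit3b found in other genes, so the split between them is uncertain. Summed, the pair was at 108 CPM in NECs and 460 CPM in TECs, a log2 ratio of 2.09 (2.00 to 2.18). Ifit2 was at 79.0 and 165 CPM, a log2 ratio of 1.06 (0.93 to 1.19). Ifit1, whose promoter carries the same pair of ISRE cores, was the exception of the family, at 248 CPM in NECs and 178 CPM in TECs, a log2 ratio of -0.48 (-0.59 to -0.37).

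Both OAS-like genes, relatives of the oligoadenylate synthetases, were higher in TECs. Oasl1 was at 18.3 CPM in NECs and 123 CPM in TECs, a log2 ratio of 2.75 (2.55 to 2.95). Oasl2 was at 62.0 and 172 CPM, a log2 ratio of 1.47 (1.34 to 1.60).

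Of the 7 antiviral effectors, 4 were 2-fold or more higher in TECs, against 11.2% of all genes, and none was 2-fold or more lower, against 21.1%. Mx1, a dynamin-like GTPase whose allele in C57BL/6 mice is known to be defective, had the largest ratio of the 35 members on the smallest counts. It had 15 UMIs in NECs (0.868 CPM) and 100 UMIs in TECs (21.5 CPM), a log2 ratio of 4.63 (3.84 to 5.52). Isg20, an RNA exonuclease, was at 16.1 and 98.6 CPM, a log2 ratio of 2.61 (2.39 to 2.83). Bst2 (tetherin), which holds budding virions on the cell surface, was at 898 and 2890 CPM, a log2 ratio of 1.69 (1.65 to 1.72). Cmpk2, a mitochondrial nucleotide kinase encoded beside Rsad2, was at 52.0 and 109 CPM, a log2 ratio of 1.07 (0.91 to 1.23). Ifitm3, which blocks viral fusion and was the most abundant member in all 3 groups, stood at 3383 CPM in NECs and 5373 CPM in TECs, a log2 ratio of 0.67. Rsad2 (viperin) had a log2 ratio of 0.71 and Samd9l one of -0.12 with an interval that holds 0.

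The ISG15 system was split between its modifier and its ligases. Isg15, the ubiquitin-like modifier, was at 545 CPM in NECs and 1420 CPM in TECs, a log2 ratio of 1.38 (1.34 to 1.43). Usp18, which removes ISG15 and dampens the receptor, was at 41.0 and 158 CPM, a log2 ratio of 1.95 (1.80 to 2.10). The ligases Herc6 and Trim25 had log2 ratios of 0.37 and -0.81. The ADP-ribosylation genes Parp14, Parp9 and Dtx3l lay between -0.29 and 0.68, and Parp9 and Dtx3l overlap on opposite strands of chromosome 16.

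Among the remaining 8 members, Lgals3bp, a secreted glycoprotein, was at 82.7 CPM in NECs and 383 CPM in TECs, a log2 ratio of 2.21 (2.11 to 2.31). Ifi27, a small mitochondrial membrane protein, was at 246 and 109 CPM, a log2 ratio of -1.17 (-1.31 to -1.04). Ly6e, a surface protein and the member with the second highest level in NECs, was level between the groups at 2005 and 2022 CPM. The other 5, Ifi44, Rtp4, Xaf1, Ifi35 and Ifi47, had log2 ratios from 0.22 to 0.96. Of the members, only Samd9l and Ly6e had an interval of the ratio that held 0, and these intervals cover counting error alone.

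**Figure D2:**
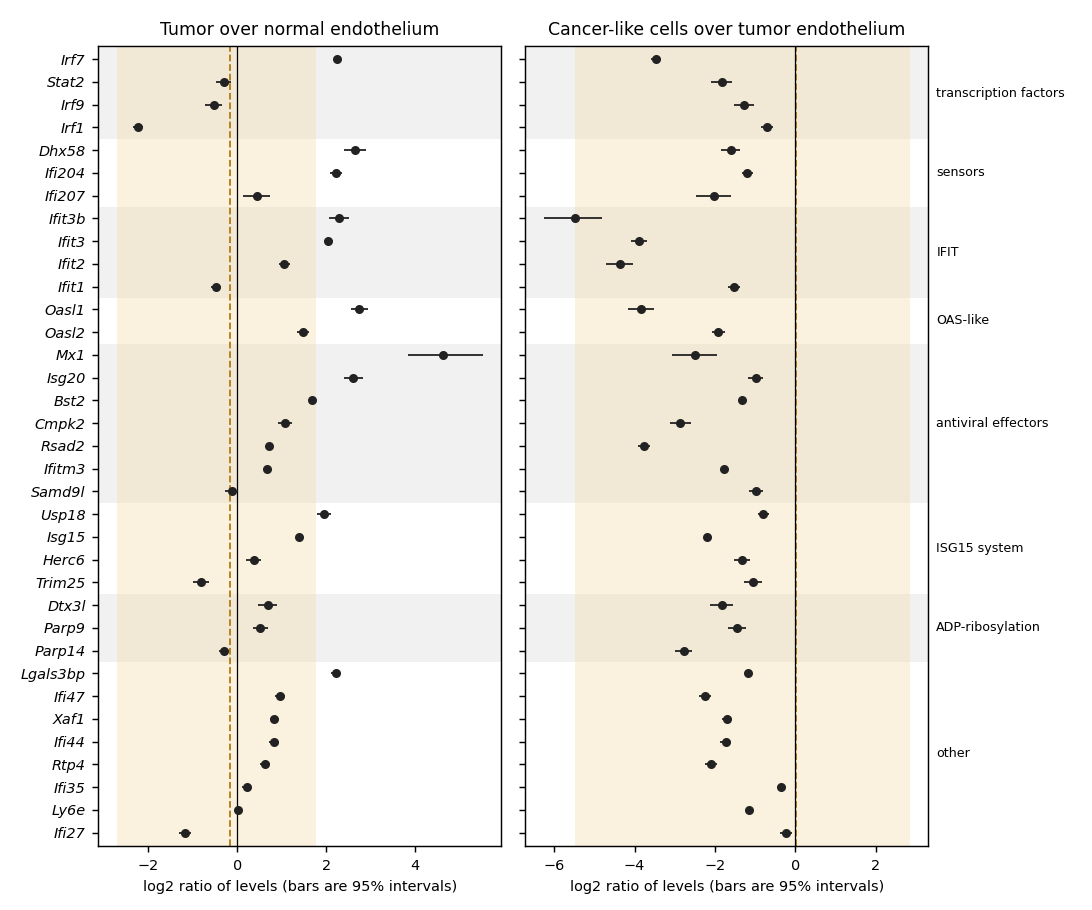
Log2 ratio of each member in TECs over NECs (left) and in cancer-like cells over TECs (right), with 95% intervals. The shaded band holds the middle of all genes compared, from the 5th to the 95th percentile (-2.71 to 1.77 on the left, -5.47 to 2.85 on the right), and the dashed line is their median. On the left, 10 points lie above the band, Mx1 the farthest, and on the right all 35 lie below 0.

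The upstream genes of the pathway lay on both sides. Of the 8 ligand genes, 7 are listed in neither table, and Ifng is listed in the tumor table with 0 UMIs in TECs, which allows up to 0.794 CPM by its Poisson interval. Of the 9 receptor and kinase genes, 8 could be compared and 1 was 2-fold or more higher in TECs, against 11.2% of all genes. It was Ifngr2, a chain of the interferon-γ receptor, at 33.6 and 113 CPM. The type I receptor chains differed little. Ifnar1 was at 50.3 and 60.3 CPM, a log2 ratio of 0.26 (0.06 to 0.46), and Ifnar2 at 114 and 120 CPM, a log2 ratio of 0.07 (-0.06 to 0.21). Among the factors and brakes, Irf8 at 36.4 and 184 CPM and Irf5 with 6 and 17 UMIs were 2-fold or more higher. The 5 that were 2-fold or more lower, against 21.1% of all genes, were Stat3, Irf2, Socs1, Socs3 and Pias1. The largest difference was that of Socs3, a feedback inhibitor of cytokine receptors, at 724 and 127 CPM, a log2 ratio of -2.52 (-2.64 to -2.40).

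A difference in immediate early and heat shock genes ran alongside these ratios. The 12 genes of this list (Fos, Jun, Egr1, Hspa1a and others, called stress genes here) were at 13267 CPM in NECs and 3207 CPM in TECs. In TECs, 9 of the 12 were 2-fold or more lower, against 21.1% of all genes. The 12 immune markers were at 22.1 and 36.8 CPM. Normal clusters, described below, fell on both sides of a gap in the stress genes, with 7 clusters (1727 cells) at 17679 CPM or more and the others (3185 cells) at 10565 CPM or less. Irf1 was at 1208 CPM in the former and 173 CPM in the latter, and its range over clusters did not overlap (950 to 1648 CPM against 119 to 221 CPM, leaving out pericyte-like and salivary-like cells). Isg15, Rtp4 and Parp14 also had ranges that did not overlap, and these 4 members compare with 1.8% of 11294 genes. The ranges were compared without counting intervals, and the gaps of these other members were narrow. The lowest rich and highest poor cluster were at 548.3 and 545.8 CPM for Isg15, 155.8 and 147 CPM for Rtp4, and 238.6 and 223.8 CPM for Parp14. Ifit1 was at 429 and 116 CPM, Ifi204 at 81.5 and 24.2 CPM and Ifi207 at 41.2 and 5.40 CPM. With Irf1 and Isg15, these made 5 members 2-fold or more higher in the clusters rich in stress genes, out of 34 compared, against 5.18% of all genes, and none was 2-fold or more lower, against 6.22%.

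Setting TECs against the normal clusters poor in stress genes moved some members and left others. The log2 ratio of Irf1 went from -2.23 to -0.41 (-0.55 to -0.28), so that it was no longer past 2-fold. That of Ifit1 turned from -0.48 to 0.62 (0.49 to 0.75), and that of Ifi207 went from 0.44 to 2.36 (1.89 to 2.85). Isg15 went from 1.38 to 2.29, while Ifit3, Oasl1, Irf7, Isg20, Dhx58 and Lgals3bp lay between 2.165 and 3.03. Against these clusters, 18 members were 2-fold or more higher, beside 10.4% of all genes, and 1, Ifi27, was lower, beside 21.5%. Against the clusters rich in stress genes alone, 14 were higher, beside 15.8% of all genes, and 4 lower, beside 20.4%. The part of the stress genes in these values was not tested.

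**Figure D3:**
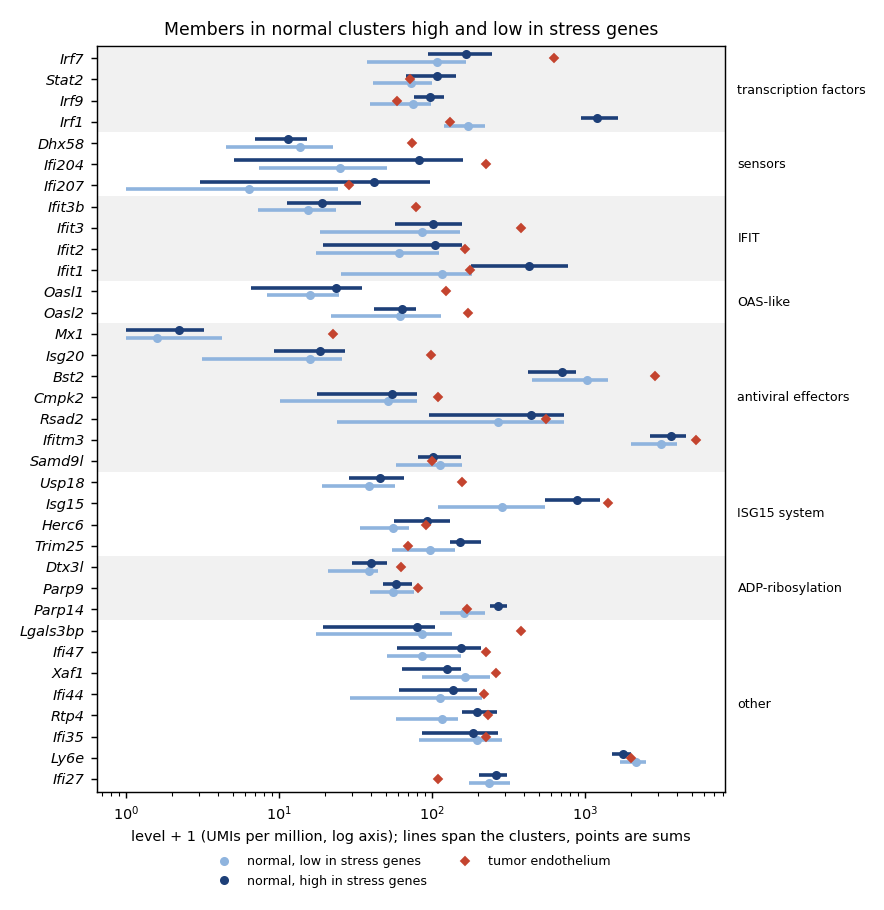
Level of each member plus 1 CPM (x axis, log scale) in normal clusters rich (dark blue) and poor (light blue) in stress genes, with TECs as red diamonds. Points are sums over cells, and lines span the 6 and 9 clusters of each kind without the pericyte-like and salivary-like clusters. For Irf1 the dark line lies wholly to the right of the light line and the diamond falls within the light line.

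The same direction was seen cell by cell. To set cells of unlike depth side by side, 2000 UMIs were drawn from each, which left out 1193 NECs, 23 TECs and 14 cancer-like cells. The members took a median of 0.95% of the UMIs of a NEC, 1.5% of a TEC and 0.5% of a cancer-like cell, and the middle 80% of cells ran from 0.5 to 1.8%, from 0.75 to 3.05% and from 0.24 to 1% respectively. A median of 7, 10 and 5 of the 35 members had a UMI. The share of cells with a UMI was higher in TECs than in NECs for 26 members, against 43.3% of 11119 genes. The intervals did not overlap and TECs were higher for 21 members, against 12.6% of genes, and TECs were lower for 3, against 14.7%. These intervals count cells, which are not replicates of a condition, so their separation is no test of tumor against normal. Irf7 was seen in 21.4% of NECs and 57.1% of TECs (50.6 to 63.5%), and in 28.4 and 90.04% of them at full depth. Lgals3bp was seen in 14.8 and 51.3%, and at full depth in 21.8 and 80.1%. Irf1 was seen in 47.4 and 24.8%, whereas at full depth, where TECs were the deeper cells, it was seen in 54.0 and 64.8%.

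**Figure D4:**
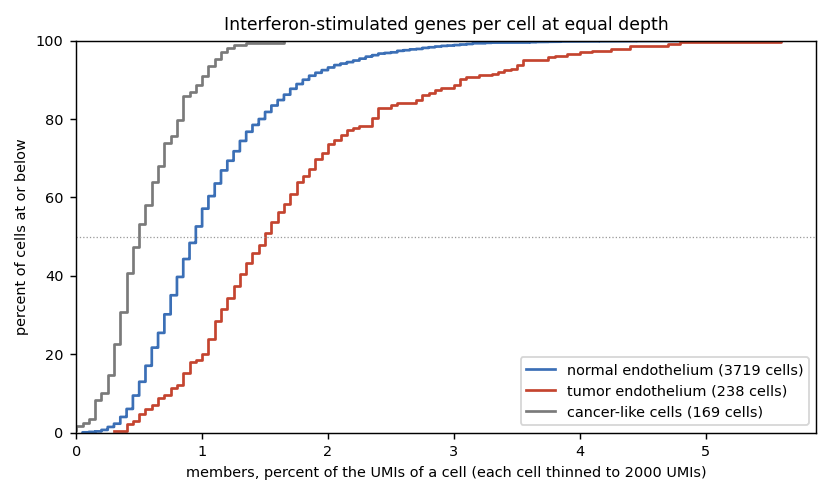
Percent of the UMIs of a cell that came from the 35 members (x axis) against the percent of cells at or below that value (y axis), after each cell was thinned to 2000 UMIs. The curves of cancer-like cells, NECs and TECs cross the dotted line at 50% of cells at 0.5, 0.95 and 1.5%.

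Within NECs and within TECs, cells with more of the other members also held more of most single members. For each member, cells were ranked by the share of the other members, and the top 25% of thinned cells was set against the bottom 25%. In NECs (929 cells on each side), 28 of 34 members with 20 or more UMIs were 2-fold or more higher in the top cells, with a median log2 ratio of 1.61, against 2.45% of 9589 other genes. In TECs (59 cells on each side), 24 of 29 were, with a median of 1.81, against 8.48% of 1933 other genes, and 55.9% of the top cells lay in tumor cluster 0, described below. In cancer-like cells (42 on each side), 4 of 6 were, against 5.57% of 1221 other genes. Ifit1 had the largest ratio in both, and in NECs it was at 22.6 CPM in the bottom cells and 731 CPM in the top cells. Rsad2, whose log2 ratio was 1.36 in NECs, reached 4.52 in TECs (3.56 to 5.67), from 76.3 to 1746 CPM. Ifi27 had the smallest ratio in both, with log2 ratios of 0.34 in NECs and -0.585 in TECs (-1.77 to 0.55). Irf1 was at 1.00 in NECs and 0.14 in TECs (-0.82 to 1.12). The stress genes were at 9451 and 17444 CPM in the bottom and top NECs and at 4771 and 3373 CPM in the bottom and top TECs, and their part was not tested.

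Vessel types were then compared within the normal gland. NECs were clustered with the interferon-related genes left out, so that the members did not define the clusters, and a cluster was named only where at least 3 markers of a type were 2-fold or more above the other cells and seen in 25% of its cells. Clusters 4 and 9 were arterial-like (661 cells), 7 and 14 venous-like (332 cells), 0 and 1 capillary-like (1464 cells) and 12 like high endothelial venules (HEV-like, 95 cells), the vessels through which lymphocytes enter lymph nodes. The members took 1.08% of the UMIs of arterial-like cells, 1.011% of capillary-like, 0.917% of venous-like and 0.815% of HEV-like cells. The order of arterial-like and capillary-like cells was not stable, with a log2 ratio of capillary-like over arterial-like of -0.099 in the clusters and 0.19 with cells sorted by their own markers. Of the 35 members, 15 were highest in arterial-like cells, against 27.4% of 11096 genes, and 12 in capillary-like cells, against 34.9%. HEV-like cells were lowest for 16 members, against 50.2% of genes, and venous-like cells for 13, against 17.5%. In 8 members the highest type was 4-fold or more above the lowest with at least 20 UMIs, against 13.2% of 11096 genes under the same rule.

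These 8 members did not share an order of vessel types. Rsad2, Cmpk2, Ifit2 and Isg20 were capillary-high and venous-low. Rsad2 was at 315 CPM in capillary-like, 180 in arterial-like, 61.6 in HEV-like and 46.9 CPM in venous-like cells, a log2 ratio of 2.75 between the extremes (2.41 to 3.10). Its neighbor Cmpk2 was at 74.9, 54.4, 21.4 and 11.7 CPM in the same order. Ifit2 was at 89.3, 73.9, 32.7 and 17.3 CPM. Isg20 was at 23.9, 12.2, 12.6 and 4.93 CPM, the last on 8 UMIs, and its arterial-like and HEV-like levels are not separable at this depth.

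Lgals3bp and Isg15 were highest in arterial-like cells. Lgals3bp was at 121 CPM there, 95.8 CPM in capillary-like, 72.9 CPM in HEV-like and 17.3 CPM in venous-like cells, a log2 ratio of 2.81 (2.24 to 3.43). Isg15 was at 573, 337, 132 and 255 CPM in the same order. Ifit1 was level over arterial-like, capillary-like and venous-like cells (164 to 167 CPM) and low in HEV-like cells at 33.9 CPM. Ifi204 ran the other way, highest in HEV-like cells at 50.3 CPM (40 UMIs), then 36.4 in venous-like, 26.6 in capillary-like and 7.25 CPM in arterial-like cells.

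Stress genes were uneven over these types as well, at 11985 CPM in arterial-like, 7491 in venous-like, 6490 in HEV-like and 2106 CPM in capillary-like cells. Leaving out the clusters rich in stress genes removed clusters 9 and 14 and no cluster named capillary-like. Ifit1 was then lower in venous-like cells too, at 55.4 CPM against 158 CPM in arterial-like and 167 CPM in capillary-like cells. Rsad2 was then at 23.1 CPM in venous-like cells, 13.7-fold below capillary-like cells. Isg15 was then lower in venous-like cells (109 CPM) than in HEV-like cells (132 CPM), and Ifi204 was at 12.9 CPM in venous-like cells, below capillary-like cells. The same 8 members and Ifit3 were then past 4-fold, against 12.3% of 11144 genes.

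Some unnamed normal clusters stood apart. In cluster 2 (567 cells), 13 of 34 members were 2-fold or more above the other NECs, against 3.79% of genes, and 0 as far below, against 10.7%. Its member share was 1.43%, Ifi207 was at 95.9 CPM and Ifi204 at 159 CPM, and it held 29298 CPM of stress genes. Cluster 5 (349 cells), led by Hspa1a and with 31633 CPM of stress genes, had the highest Irf1 (1648 CPM), Isg15 (1259 CPM) and Ifit1 (772 CPM). Car8, Timp4 and Lpl were among its leading genes and among those of the capillary-like cluster 0. It did not pass the naming rule, so its cells are not in the capillary-like values above. Clusters 6 and 8, both with Penk and Pacsin1 among their leading genes, had member shares of 0.675 and 0.991% beside 1620 and 25646 CPM of stress genes. In cluster 6 and in the venous-like cluster 7, 17 of 34 members were 2-fold or more below the other NECs, against 11.8 and 10.9% of genes, and 0 were as far above, against 5.69 and 6.49%. Rsad2 was highest in cluster 3 at 736 CPM, a cluster with 10565 CPM of stress genes.

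**Figure D5:**
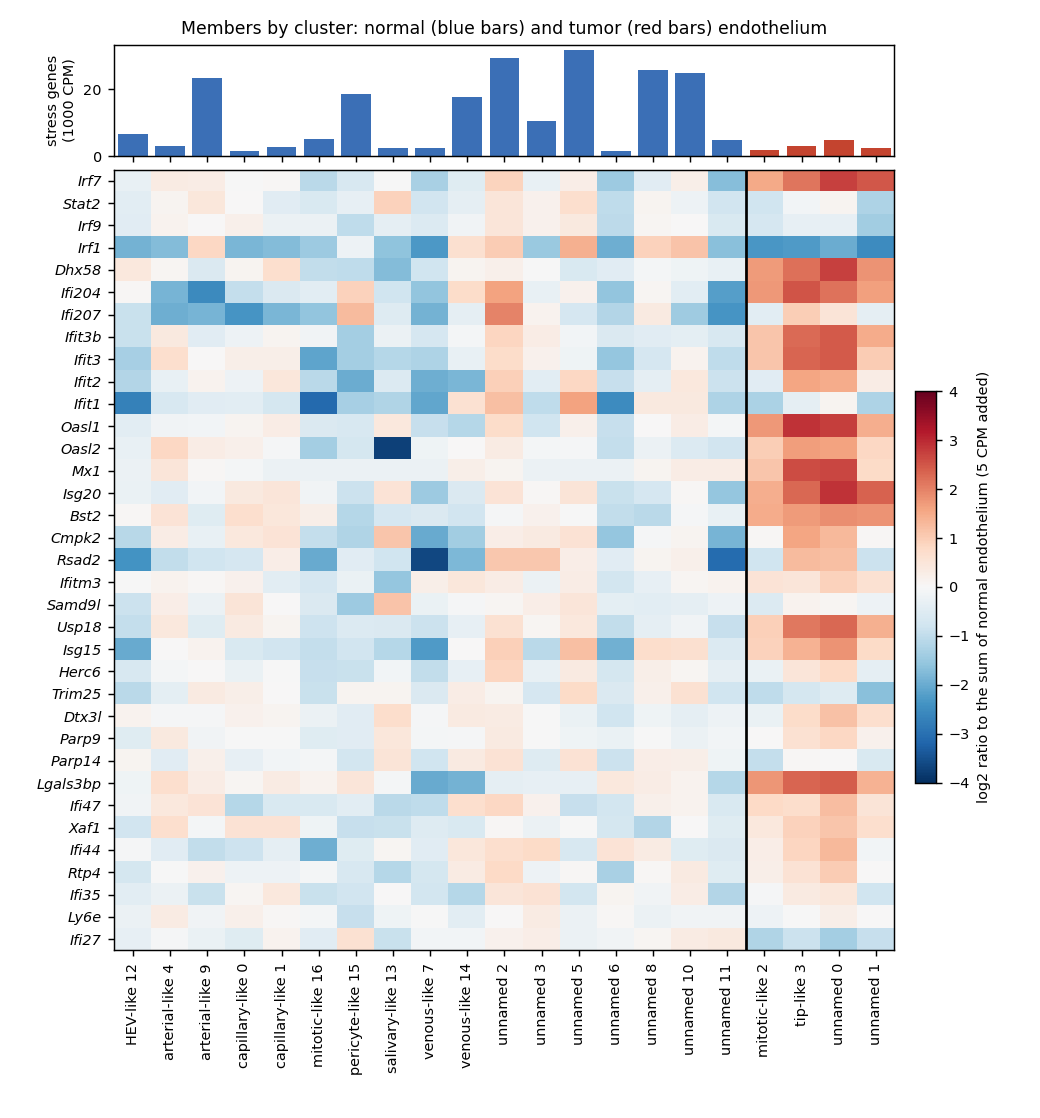
Members (rows) by cluster (columns), as the log2 ratio of the level in a cluster to the sum over NECs with 5 CPM added to each, red above and blue below. Normal clusters stand left of the black line and tumor clusters right of it, and the bars at the top give the 12 stress genes in units of 1000 CPM. Irf1 is red in the normal clusters with tall bars other than the pericyte-like one, and Irf7, Mx1, Isg20 and Lgals3bp are red in all 4 tumor clusters.

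The difference between TECs and NECs was not carried by a single cluster for part of the list. In 12 members the lowest of the 4 tumor clusters lay above the highest of 15 normal clusters, against 4.83% of 11119 genes. These were Ifit3, Ifit3b, Oasl1, Irf7, Usp18, Mx1, Ifi204, Ifitm3, Bst2, Isg20, Dhx58 and Lgals3bp. The rule compared levels without their counting intervals, and some gaps were narrow. The highest normal and lowest tumor cluster were at 159 and 162 CPM for Ifi204 and at 4632 and 4740 CPM for Ifitm3. For Mx1 they were at 3.23 and 4.90 CPM, the latter in the shallow tumor cluster 1. Irf7 ran from 36.7 to 246 CPM over the normal clusters and from 387 to 906 CPM over the tumor clusters. Bst2 ran from 426 to 1428 CPM and from 2500 to 3255 CPM. Ifi27 was the single member with every tumor cluster below every normal cluster, at 93.3 to 134 CPM against 174 to 324 CPM, beside 6.11% of genes. The ranges of the other 22 members overlapped, among them those of Isg15 and Rsad2.

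TECs formed 4 clusters. Cluster 0 (86 cells, unnamed, led by Tmem255b, Ptprr and Cldn15) had the highest member share, 2.11% (2.09 to 2.13%). The tip-like cluster 3 (57 cells) had a share of 1.75%. It was named by Pgf, Apln, Cxcr4 and Adm, 4 of the 11 tip markers, and the others did not pass the naming rule. The mitotic-like cluster 2 (58 cells) had a share of 1.38%. Cluster 1 (60 cells, unnamed) had a share of 1.51% and was shallow, with a median of 2251 UMIs per cell. Against the other TECs, 1 member was 2-fold or more higher and 0 lower in cluster 0 (Isg20, log2 ratio 1.03, beside 6.16 and 8.52% of genes) and in the tip-like cluster (Ifi207, log2 ratio 1.08, beside 6.41 and 7.91%). In the shallow cluster 0 were higher and 9 lower, beside 14.1 and 13% of genes.

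Irf7 was at 906 CPM in cluster 0, 760 in cluster 1, 594 in cluster 3 and 387 CPM in cluster 2. Isg15 was at 1926, 922, 1432 and 1026 CPM in the same order of clusters. Rsad2 was highest in the tip-like cluster at 838 CPM and close to it in cluster 0 at 805 CPM, against 197 CPM in the mitotic-like cluster. Ifit2 was at 245, 232 and 56.9 CPM in the tip-like cluster, cluster 0 and the mitotic-like cluster.

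As shares of UMIs, mitotic-like TECs had lower levels of most members than the other TECs. Of the 35 members, 12 were 2-fold or more lower, against 8.8% of 10572 genes, and 0 were 2-fold or more higher, against 7.78%. The median log2 ratio was -0.79 over the members and -0.07 over all genes, and that of the summed level was -0.48 (-0.50 to -0.46). Ifit2 had the largest difference, with a log2 ratio of -2.003 (-2.32 to -1.70), followed by Mx1 at -1.98 (-2.95 to -1.13) and Rsad2 at -1.97 (-2.14 to -1.81). Ifitm3, Ifi27, Ifi47 and Irf1 differed least, with log2 ratios between -0.21 and -0.11. Mitotic-like TECs were deeper, with a median of 29966 UMIs. With every cell thinned to 2000 UMIs, 15 members were 2-fold or more lower and the summed log2 ratio was -0.46 (-0.54 to -0.38). No share of all genes was taken for the thinned cells. Thinning keeps each cell's shares, so molecules per cell were not compared. In the normal gland the mitotic-like cluster had 30 cells and a member share of 0.725%, and 12 of 34 members were 2-fold or more lower there than in the other NECs, against 12.7% of genes, and 0 were as far above, against 17%.

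Cancer-like cells of the same tumor library had the lowest summed level of the members as a share of UMIs. Of the 35 members, 29 were 2-fold or more lower than in TECs, against 21.5% of 10847 genes, and 0 were 2-fold or more higher, against 17.5%. The median log2 ratio was -1.74 over the members and 0.02 over all genes, and that of the summed level was -1.65 (-1.67 to -1.64). Bst2, Lgals3bp, Usp18, Ifi204, Isg20, Dhx58 and Mx1 lay between NECs and TECs. The level of the other members lay below that in NECs as well. All these levels are shares of UMIs, and a cancer-like cell held more UMIs in total than a TEC (medians 51995 and 16989). The members together had 56466 UMIs in the 183 cancer-like cells and 79865 UMIs in the 261 TECs. A lower share is therefore no evidence of fewer member molecules per cell, which were not compared.

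Ifit3b, Ifit2, Ifit3, Oasl1 and Rsad2 were furthest apart. Ifit3b was at 78.6 CPM in TECs and 1.74 CPM (18 UMIs) in cancer-like cells, a log2 ratio of -5.49 (-6.27 to -4.81). Ifit2 was at 165 and 7.94 CPM (-4.37), Ifit3 at 381 and 25.8 CPM (-3.89), Oasl1 at 123 and 8.62 CPM (-3.84) and Rsad2 at 561 and 41.4 CPM (-3.76). These levels were 2.22 to 7.37% of those in TECs, beside 1.87% for the sum of the 8 endothelial markers (from 0% for Erg to 6.76% for Eng), and the part of free RNA in them was not tested. After thinning, Ifit2 was seen in 0.592% of 169 cancer-like cells and Ifit3b and Mx1 in 1.18% each. At full depth Ifit2 was seen in 26.2%, Ifit3b in 7.65% and Mx1 in 14.8% of cancer-like cells.

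At the other end, Ifi27 was at 109 CPM in TECs and 92.8 CPM in cancer-like cells, a log2 ratio of -0.24 (-0.39 to -0.08). Ifi35, a leucine zipper protein, was at 224 and 176 CPM (-0.35), Irf1 at 130 and 79.4 CPM (-0.71), Usp18 at 158 and 90.8 CPM (-0.80) and Samd9l at 99.7 and 50.5 CPM (-0.98). Usp18 and Ifi204, at 90.8 and 98.7 CPM, were among the members above the level in NECs. Bst2, also above its level in NECs, was at 1146 CPM in cancer-like cells and was seen in 82.2% of them after thinning. Of the receptor and kinase genes, 7 of the 8 compared were 2-fold or more lower in cancer-like cells, against 21.5% of all genes. These were Ifnar1, Ifnar2, Ifngr1, Ifngr2, Il10rb, Jak2 and Tyk2, with Ifnar1 at 13.3 CPM and Ifnar2 at 25.7 CPM. Among the factors and brakes, Irf8 (16.4 CPM) was lower and Ptpn6 (2 and 79 UMIs) was higher.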

How the data were processed

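Reads were mapped by the authors with Cell Ranger and analyzed in Seurat, and the labels name mm10 (the Cell Ranger version is not given in the sources used here). The authors deposited whole-number UMI counts per gene and barcode for both libraries, without normalization. The unit of every value used is this deposited count. All barcodes held 40914092 UMIs in the normal library and 18980858 in the tumor library.

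Counts were summed over the cells of a group and given as CPM. Ratios used genes with a mean of at least 2 CPM over both groups, and a group at 0 was set at 3 counts. ECs of each library were clustered alone in Seurat 5.3.0 (R 4.3.3) with LogNormalize, 4000 variable genes less the interferon-related ones, 20 principal components, 20 neighbors and a resolution of 0.8. No doublet caller was run. Python 3.11.15, numpy 2.4.6 and scipy 1.17.1 gave the sums, ratios and intervals, and the ratio was tested on simulated data. Figures were drawn with matplotlib 3.10.9. Gene positions came from GENCODE M21 (GRCm38) and promoters from RefSeq.

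The members and lists were chosen with earlier results of these data known. Values in full are given for members past 2-fold between TECs and NECs, the 5 highest and 5 lowest in cancer-like cells over TECs, and those past 4-fold between vessel types with at least 20 UMIs. Pathway genes are named where past 2-fold, except an item that is not reported here. Members named outside this rule were chosen after their values were seen. The limit of 15000 CPM of stress genes was also set after the data were seen. Alternatives covered the cell and gene filters, depth, scaling, clustering and the weight of single cells.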

Additional observations from a re-analysis of the deposited data

Results flagged for a closer look

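Cells left out because they held a Ptprc, Myh11, Epcam or Cspg4 molecule enter no comparison above. In the tumor library the members took 0.606% of the UMIs of the 28 removed cells (0.595 to 0.616%), against 0.397% in the 1724 removed cells of the normal library (0.394 to 0.4%), and this was listed because it is a signal outside the main measurement that lies above the normal library. By the same marker rule, 23 of the 28 tumor cells were cancer-like (0.583%) and 5 endothelial (1.16%), while 960 of the removed normal cells had more UMIs of Rhox5, Hmga2 and Krt8 (0.308%) and 523 were endothelial (0.838%).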

How the results depend on the processing

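No paired analysis was possible because each condition has 1 library and the labels carry no replicate numbers; for the same reason nothing shows the spread between animals, and all differences between conditions cannot be told apart from differences between libraries. Of 103 alternative values of the main results, 70 lay within the counting interval of the reported value (counts within 1.5 times of it) and 33 moved. A change of sign was looked for only in ratios reported past 2-fold, and none was found. Among the main ratios only that of cancer-like cells over TECs was past 2-fold. Smaller ratios that changed sign counted as moved, as for capillary-like over arterial-like cells. Of 830 values for single members or for the median over members, 628 stayed and 202 moved.

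The summed log2 ratio of TECs over NECs (0.72) was 0.68 with a mitochondrial limit of 5%, 0.75 with no removal by the 4 genes, 0.68 after thinning, 0.89 when scaled by the median ratio of all genes and 0.85 without HEV-like and mitotic-like clusters. With choices made after the data were seen, it was 0.74 without the salivary-like, pericyte-like and heat shock gene clusters of NECs and the shallow cluster of TECs, 0.88 against NECs poor in stress genes (1 member lower) and 0.53 against NECs rich in them (4 lower). The count of members 2-fold or more higher ran from 13 to 20 over these alternatives.

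That of cancer-like cells over TECs (-1.65) was -1.71 as a mean over cells, -1.69 with a stricter rule for cancer-like cells, -1.68 when scaled and, added later, -1.90 without Ifitm3, Ly6e and Bst2. That of mitotic-like over other TECs (-0.48) was -0.53 at 5%, -0.37 as a mean over cells, -0.44 with cells chosen by 3 mitotic markers, -0.46 after thinning and, added later, -0.50 without the shallow cluster.

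Vessel types depended on how cells were sorted. Arterial-like over venous-like (0.24) was 0.19 at 5%, 0.31 as a mean over cells and 0.28 with cells sorted by their own markers. Capillary-like over venous-like (0.14) was 0.070, 0.19 and 0.48 under the same 3, 0.17 at a resolution of 1.2 and 0.17 with the interferon-related genes left in. Capillary-like over arterial-like (-0.099) was -0.071 at 1.2 and 0.19 with cells sorted by their own markers, so its direction was not settled. Tip-like over mitotic-like TECs (0.35) was 0.30 as a mean over cells, 0.42 at 1.2 and 0.026 with the interferon-related genes left in; at 0.4 there was no tip-like cluster and no value. The median share per NEC (0.95%) was 0.9% at 1000 UMIs. The causes were not tested.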
